A study of Mus musculus with 6 samples.

Results

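The pro-survival members of the BCL2 family were taken as the rows of the deposited gene table whose name is Bcl2, Bcl2l1, Bcl2l2, Mcl1, Bcl2a1a, Bcl2a1b or Bcl2a1d. All 7 were found among the 53278 genes of the table, and 6 of them passed the filter on low counts. The proteins they encode (BCL-2, BCL-XL, BCL-W, MCL-1 and the copies of A1) sit on the outer mitochondrial membrane or bind there. They hold the pore-forming proteins BAX and BAK in check and bind BH3-only proteins such as BIM and BAD. When the BH3-only proteins outweigh them, the membrane is breached, cytochrome c leaves the mitochondrion and caspases are switched on. In lymphocytes, IL-7 and IL-2 signal through STAT5 to sustain Bcl2 and Mcl1, while Bcl2l1 and the Bcl2a1 genes are known targets of NF-κB, the factor that receptors of the TNF receptor family such as GITR activate.

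The cells were type-2 innate lymphoid cells (ILC2s) sorted from visceral adipose tissue of C57BL/6 mice aged 8 weeks that had received 3 intraperitoneal injections of 1 µg IL-33. Both groups were then cultured with IL-2 (10 ng/mL) and IL-7 (10 ng/mL). The DTA-1 group also had DTA-1 (5 µg/mL), an agonistic antibody to GITR. The isotype group had the isotype control antibody by its titles and the study's methods, although its sample descriptions and column headers read PBS-GITR. The culture lasted 48 h by the labels, although the results text of the study gives a shorter time. Each group had 3 libraries made from 10 ng of RNA, and nothing says whether these came from separate mice, so p-values measure only the spread between these libraries. The cells were mouse ILC2s activated in vivo and kept in survival cytokines in both groups, so neither group shows the family in ILC2s deprived of these cytokines.

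Normalized counts below are TMM-scaled CPM from edgeR. Total counts ranged from 34557215 to 35131329 per library in isotype and from 30569351 to 32492849 in DTA-1, so depth did not overlap between the groups. TMM factors were 1.008 to 1.016 in isotype and 0.9687 to 1.012 in DTA-1. A count of 0 allowed up to 3 counts, or 0.0854 to 0.0981 CPM before TMM scaling, for counting error only. The library labelled DTA-1 replicate 1 stood apart from its group. Measured as the chi-square of counts across genes per degree of freedom, it lay 10.1 to 11.9 from the isotype libraries, against 29.0 and 30.5 from the other DTA-1 libraries, whose own distance was 11.9. Its label was kept, and values from a fit of the other 5 libraries (the 5-library fit) are given beside those of all 6. The library was singled out by its nearness to isotype in these same data. Leaving it out therefore tends to widen differences between the groups, and what the 5-library fit calls is not a separate test. All 13 ILC2 marker genes were detected, with a summed level of 11976 to 12558 normalized counts in isotype and 12729 to 16754 in DTA-1. The higher sum in DTA-1 lay in Il5, and the other 12 genes summed to 6913 to 7140 and 6954 to 7102. That level sum held opposite moves in DTA-1 replicates 2 and 3. Areg had 334 and 317 normalized counts there against 193 to 194 in isotype, and Icos 99.0 and 98.4 against 156 to 173. Id2 and Il13 were also above all isotype libraries in both, and Gata3, Il1rl1, Kit and Thy1 below them. The neutrophil genes summed to at most 1.35 normalized counts in any library, with S100a8, S100a9, Elane and Retnlg at 0 in all 6.

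The Bcl2a1 genes are near-identical copies of 1 gene on mouse chromosome 9, and their sequences show how far their reads can be told apart. Of the 516 coding bases, 504 were the same in Bcl2a1a, Bcl2a1b and Bcl2a1d. Bcl2a1d and Bcl2a1b shared 98.8% of them, Bcl2a1d and Bcl2a1a 98.6%, and Bcl2a1b and Bcl2a1a 97.9%. The first 90 coding bases (GENCODE mouse release 21, GRCm38) held 6 of the 12 positions that differ, and are shown 5′ to 3′ with those positions in capitals. They lie at chr9:88731630-88731719 (minus strand), chr9:89199360-89199449 (plus strand) and chr9:88957051-88957140 (plus strand).
Bcl2a1d: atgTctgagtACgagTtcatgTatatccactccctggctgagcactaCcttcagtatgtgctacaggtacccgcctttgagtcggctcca
Bcl2a1b: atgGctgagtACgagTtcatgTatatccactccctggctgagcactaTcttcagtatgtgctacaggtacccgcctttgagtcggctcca
Bcl2a1a: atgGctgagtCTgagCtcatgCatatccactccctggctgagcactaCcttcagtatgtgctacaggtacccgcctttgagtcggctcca
From coding position 95 to 311 the 3 copies did not differ at any of 217 bases. The first 120 bases of that run, shown because a read that falls inside it carries nothing that names its copy, are the following.
Bcl2a1d, Bcl2a1b and Bcl2a1a: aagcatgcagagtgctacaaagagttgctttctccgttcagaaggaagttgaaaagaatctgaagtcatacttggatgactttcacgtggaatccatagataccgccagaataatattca
Over the whole transcripts, including the related Bcl2a1c, 67.6% of the 75-base windows of Bcl2a1d also occurred in another copy, against 43.5% for Bcl2a1b and 55.2% for Bcl2a1a. The length of the reads is not given in the sources used here. The counts of each copy were therefore estimates, with fractional values in 6 of 6 libraries for Bcl2a1d and Bcl2a1b and in 5 of 6 for Bcl2a1a, and the sum of the 3 copies was analysed beside them.

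To order the members within the cells, normalized counts were divided by the summed length of each gene's exons in kilobases. Mcl1 had the highest level per length in both groups, 91.4 ± 5.36 in isotype and 92.4 ± 3.61 in DTA-1 (mean ± SD of 3 libraries). The summed Bcl2a1 copies followed with 40.5 ± 4.20 and 44.9 ± 8.14, and Bcl2l1 with 35.1 ± 1.40 and 31.8 ± 1.27. In isotype these neighbours overlapped, since the Bcl2a1 sum was 36.1 in replicate 2 and Bcl2l1 was 36.5 in replicate 1. Bcl2 had 14.9 ± 0.968 and 13.1 ± 1.29. Bcl2l2 was the lowest member tested, with 0.488 ± 0.114 and 0.430 ± 0.191. The order of Bcl2l1 and the Bcl2a1 copies rested on the length used. With the longest transcript as the length, Bcl2l1 had 62.7 ± 2.51 in isotype and stood above the Bcl2a1 sum, and the order of the other members was kept.

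DTA-1 was compared with isotype by edgeR's quasi-likelihood test over 14361 genes, and a gene was called when it changed by 1.5-fold or more with a Benjamini-Hochberg adjusted p under 0.05. None of the 6 members tested was called (0 of 6), against 0% of all genes tested. At an unadjusted p under 0.05 and 1.5-fold, edgeR again gave 0 of 6, against 2.35% of all genes, and DESeq2's Wald test 0 of 7, against 2.3% of the genes to which it gave an adjusted p. At an adjusted p under 0.05 and 1.5-fold DESeq2 called 0 of 7 as well, against 0.0983% of those genes. With the replicate number as a block edgeR called 0 of 6, against 0.00696%. The members were divided in direction, with 3 positive and 3 negative log2 fold changes and a median of −0.06, beside −0.01 for all genes tested. In bulk RNA, fewer cells that express a gene and less RNA of it per cell cannot be told apart. The values per library are in the plot of normalized counts by group.

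**Figure D1:**
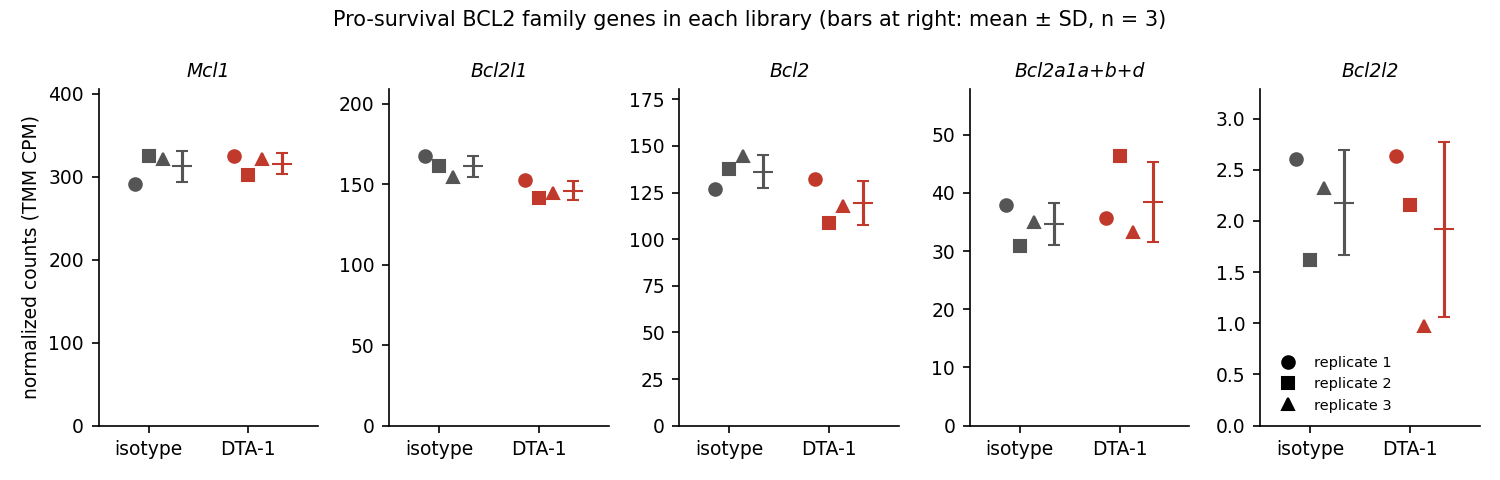
Normalized counts (TMM-scaled CPM, vertical axis from 0) of Mcl1, Bcl2l1, Bcl2, the summed Bcl2a1 copies and Bcl2l2 in the 3 isotype (grey) and 3 DTA-1 (red) libraries, with the mean ± SD beside the points. The groups overlap for every gene drawn except Bcl2l1, whose DTA-1 libraries lie between 141 and 152 and whose isotype libraries lie between 154 and 167.

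Mcl1 (chromosome 3, 95658788 to 95663176), which encodes the short-lived protein MCL-1 that lymphocytes need at nearly every stage, had 291, 324 and 322 normalized counts in isotype replicates 1, 2 and 3. In DTA-1 replicates 1, 2 and 3 it had 325, 302 and 321. The groups overlapped, and the lowest value of all was that of isotype replicate 1. The log2 fold change was 0.02 (95% confidence interval −0.13 to 0.16, SE 0.07), with an edgeR adjusted p of 0.973. Expressed as a change in level, that interval runs from −8.59% to 11.7%, well inside 1.5-fold in either direction. In the 5-library fit the log2 fold change of Mcl1 was −0.01.

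Bcl2l1 (chromosome 2, 152780668 to 152831728) encodes BCL-XL in its long form and a pro-apoptotic short form by alternative splicing, which counts per gene cannot separate. It had 167, 161 and 154 normalized counts in isotype and 152, 141 and 144 in DTA-1. Every DTA-1 library was below every isotype library, by a narrow margin in replicate 1, and the same held with total counts in place of TMM. Of the 6 members tested, 1 (Bcl2l1) had groups that did not overlap, against 11.3% of all genes, or 6.04% with the DTA-1 libraries below. The log2 fold change of Bcl2l1 was −0.14 (95% confidence interval −0.28 to 0.00, SE 0.06), with an edgeR adjusted p of 0.692, and it was −0.17 in the 5-library fit (adjusted p from edgeR 0.267, and 0.267 to 0.999 across alternatives). The interval, −17.9% to 0.104% as a change in level, holds neither a rise nor a fall of 1.5-fold.

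Bcl2 (chromosome 1, 106538178 to 106714274), the founding member of the family and a major survival gene of resting lymphocytes, had 127, 138 and 144 normalized counts in isotype. In DTA-1 it had 132, 109 and 118. DTA-1 replicates 2 and 3 lay below all isotype libraries, and the library labelled DTA-1 replicate 1 lay among them. The log2 fold change was −0.19 (95% confidence interval −0.38 to −0.00, SE 0.08), with an edgeR adjusted p of 0.688, a change in level of −12.3% with an interval of −22.9% to −0.169%. Before adjustment the edgeR p of Bcl2 was 0.0475, and a p under 0.05 was found in 7.22% of all genes. In the 5-library fit the log2 fold change was −0.27 (95% confidence interval −0.44 to −0.09, adjusted p from edgeR 0.152, and 0.152 to 0.999 across alternatives). An unadjusted p under 0.05 was then reached by 14% of all genes. With each library left out in turn, the log2 fold change of Bcl2 stayed below 0, from −0.27 to −0.12.

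These 3 genes were measured with little spread. A standard error smaller than that of Bcl2l1 was found in 4.02% of the genes tested, smaller than that of Mcl1 in 4.51% and smaller than that of Bcl2 in 18.3%. Pecam1, 1 of 4 endothelial marker genes, had 18.4 to 24.4 normalized counts in isotype and 10.4 to 18.3 in DTA-1, while Cdh5 was at 0 in all 6 libraries and Kdr and Vwf were at most 0.160 and 0.032. By the study's methods the sort kept cells with CD45, and the source of the Pecam1 counts was not tested. T cell genes overlapped between the groups, at 40.9 to 54.1 and 47.6 to 51.3, with Cd8a at 0. Cd3g held most of these sums, at 36.2 to 48.6 over the 6 libraries. Cd3e, Cd3d, Cd4 and Trac were each at most 3.72. Fibroblast genes summed to 2.20 to 8.39 normalized counts in isotype and 0 to 3.98 in DTA-1, and Pdgfra had counts in isotype only. Macrophage, B cell and eosinophil genes summed to at most 12.2, 18.2 and 7.74 in any library, and their groups overlapped.

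**Figure D2:**
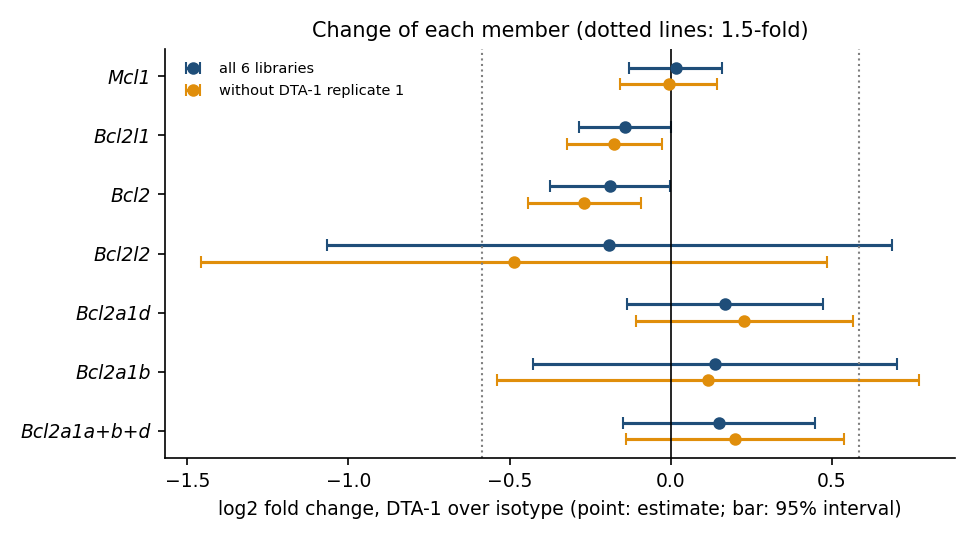
Log2 fold change of each tested member, DTA-1 over isotype (horizontal axis), with 95% confidence intervals from edgeR, for all 6 libraries (blue) and for 5, without DTA-1 replicate 1 (orange). The intervals of Mcl1, Bcl2l1, Bcl2, Bcl2a1d and the summed Bcl2a1 copies lie inside the dotted lines at 1.5-fold, and those of Bcl2l2 and Bcl2a1b reach past them.

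The Bcl2a1 genes encode A1, an inducible pro-survival protein with a short half-life. Bcl2a1d (chromosome 9, 88723285 to 88731914) had 31.3, 24.7 and 30.1 normalized counts in isotype and 29.4, 38.3 and 29.0 in DTA-1. Only DTA-1 replicate 2 was above the isotype libraries, and the other DTA-1 libraries lay among them. The log2 fold change of Bcl2a1d was 0.17 (95% confidence interval −0.14 to 0.47, SE 0.14), with an edgeR adjusted p of 0.831, and 0.23 in the 5-library fit. Bcl2a1b (chromosome 9, 89199209 to 89207827) had 5.87, 5.83 and 4.85 normalized counts in isotype and 6.23, 7.91 and 4.06 in DTA-1, so that the DTA-1 libraries held both the highest and the lowest value. Its log2 fold change was 0.14 (95% confidence interval −0.43 to 0.70, SE 0.26), with an edgeR adjusted p of 0.941, and 0.12 in the 5-library fit.

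Bcl2a1a (chromosome 9, 88956900 to 88962419) was removed by the filter. Its expected counts were 27.6, 10.0 and 2.54 in isotype replicates 1, 2 and 3. In DTA-1 they were 0, 2.27 and 4.56, of which the first was below 1e-06. All of these are small beside the 866 to 1195 counts given to Bcl2a1d, from which it differs at 7 coding bases. Bcl2a1d took 80.1% to 87.4% of the reads of the 3 copies in each library, Bcl2a1b 12.2% to 18.9%, and Bcl2a1a at most 2.05%. The plot of counts by copy shows the same division in both groups.

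**Figure D3:**
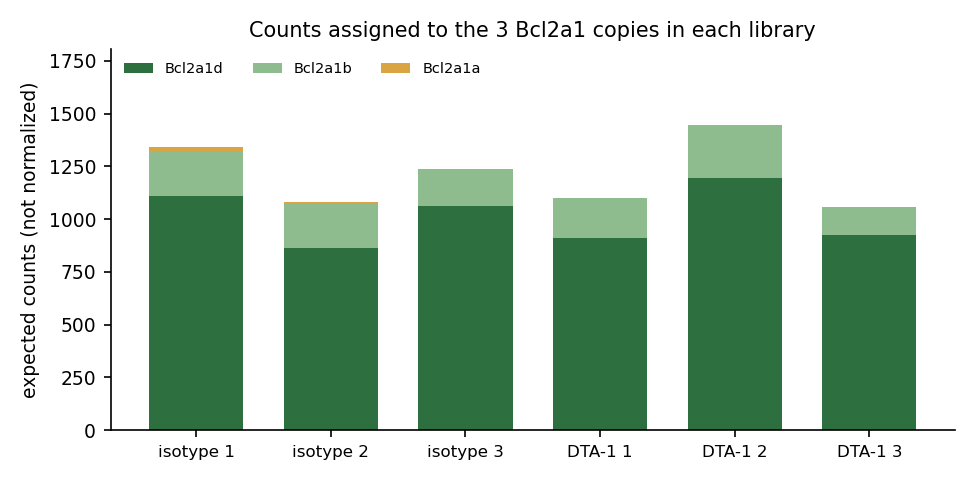
Expected counts (not normalized, vertical axis from 0) assigned to Bcl2a1d, Bcl2a1b and Bcl2a1a, stacked for each of the 6 libraries. Bcl2a1d takes 80.1% to 87.4% of each bar, and the tallest bar is DTA-1 replicate 2.

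Summed over the 3 copies, Bcl2a1 had 38.0, 30.8 and 35.0 normalized counts in isotype and 35.7, 46.3 and 33.2 in DTA-1. A single library, DTA-1 replicate 2, was higher than the rest. The log2 fold change of the sum was 0.15 (95% confidence interval −0.15 to 0.45, SE 0.14), with an edgeR adjusted p of 0.848. Without DTA-1 replicate 2 it was −0.0011, and in the 5-library fit it was 0.20 (adjusted p from edgeR 0.615). The upper end of the interval was 1.36-fold. DTA-1 replicate 2 also had the highest summed level of mast cell and basophil genes, 30.7 normalized counts against 11.6 to 22.2 in the other libraries. Cpa3 led these 6 genes and was highest in DTA-1 replicate 2, as were Tpsb2 and Ms4a2. Mcpt8 was lowest there, at 0.192 normalized counts. Fcer1a had 2.63 there, below isotype replicate 2 (2.85) and DTA-1 replicate 3 (3.11). Mcpt4 and Ms4a2 were at 0 in several libraries, Mcpt4 also in DTA-1 replicate 2. The next highest sum of these genes, 22.2, was in DTA-1 replicate 3, where Bcl2a1 had 33.2. By the study's methods the sort discarded cells with FcεRI, which mast cells and basophils carry, and the part of these genes in the Bcl2a1 value was not tested.

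The gene Gm29094 overlaps Bcl2a1b on the same strand over 8449 bases and had 66, 94.4 and 30.7 counts in isotype and 75.2, 82.2 and 125 in DTA-1. In DTA-1 replicate 3 it was nearly level with Bcl2a1b, which had 129 counts there. The values of Bcl2a1b are uncertain for this reason. With Gm29094 added to the sum of the copies, an alternative chosen after its counts were seen, the log2 fold change of the sum was 0.18 (adjusted p from edgeR 0.771). The antisense genes D630008O14Rik within Bcl2 and Gm10634 across Bcl2a1d had few counts beside them, 9.02 to 94.2 against at least 3398 for Bcl2 and 1.03 to 6.24 against at least 866 for Bcl2a1d. Whether strand was used in counting is not given in the sources used here.

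Bcl2l2 (chromosome 14, 54883377 to 54888234), which encodes BCL-W, had 2.60, 1.61 and 2.32 normalized counts in isotype and 2.63, 2.16 and 0.972 in DTA-1. The groups overlapped, and the lowest value was that of DTA-1 replicate 3, at 31.0 counts. The log2 fold change was −0.19 (95% confidence interval −1.07 to 0.69, SE 0.40), with an edgeR adjusted p of 0.947. The value was −0.49 in the 5-library fit and 0.13 without DTA-1 replicate 3. At this depth a 1.5-fold change of Bcl2l2 in either direction was not detectable. It shares 4794 bases with Gm20521, which had at most 11.1 counts, in isotype replicate 1, where Bcl2l2 had 92.2.

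The balance between members was measured as the log2 ratio of 2 members' counts within each library, which does not depend on how libraries are scaled. These counts were not divided by exon length, so the level of a ratio does not show which member is higher. Only its difference between the groups can be read. The ratio of Mcl1 to Bcl2 was 1.20, 1.24 and 1.15 in isotype and 1.30, 1.47 and 1.45 in DTA-1. Every DTA-1 library was above every isotype library, the library labelled DTA-1 replicate 1 among them. The means were 1.20 ± 0.0419 and 1.40 ± 0.0950 (SD, n = 3 each), a difference of 0.21 with a two-sided exact permutation p of 0.1, the smallest that 3 libraries against 3 allow, or 0.3 after adjustment over the 3 ratios compared. Most of that difference lay in Bcl2, whose log2 fold change was −0.19 beside 0.02 for Mcl1.

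The ratio of Bcl2l1 to Bcl2 was 0.40, 0.23 and 0.10 in isotype and 0.21, 0.38 and 0.29 in DTA-1, and the groups overlapped. The difference was 0.05 (exact permutation p = 0.7, adjusted 0.7). The ratio of the Bcl2a1 copies to Bcl2 was −1.74, −2.16 and −2.04 in isotype and −1.89, −1.23 and −1.82 in DTA-1. The groups again overlapped, with DTA-1 replicate 2 highest, and the difference was 0.33 (exact permutation p = 0.3, adjusted 0.45). In the 5 libraries without DTA-1 replicate 1 the differences were 0.26 for Mcl1, 0.09 for Bcl2l1 and 0.45 for the Bcl2a1 copies, each relative to Bcl2.

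**Figure D4:**
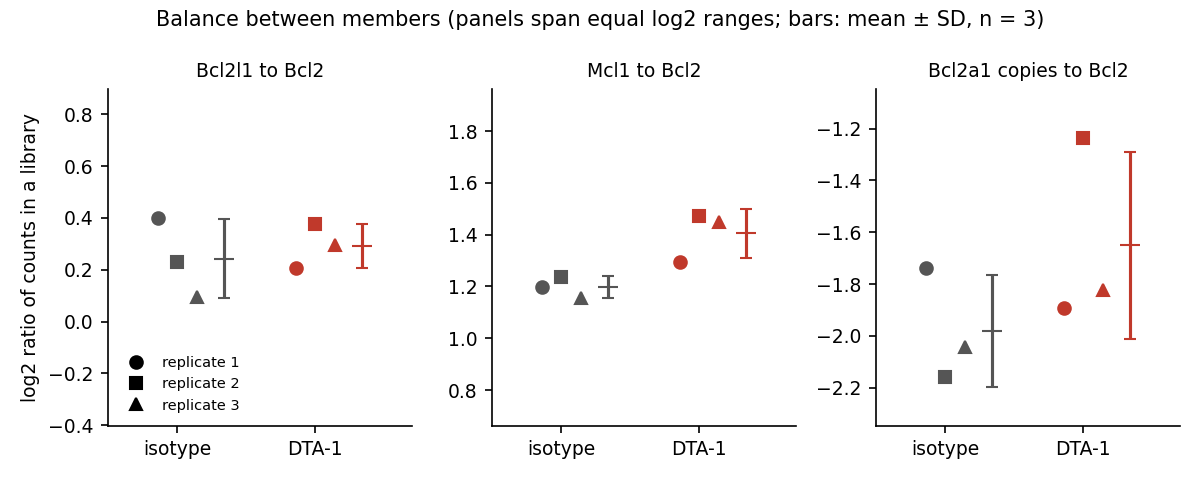
Log2 ratio of counts within each library (vertical axes, of equal span) for Bcl2l1 to Bcl2, Mcl1 to Bcl2 and the summed Bcl2a1 copies to Bcl2, in isotype (grey) and DTA-1 (red), with the mean ± SD. The groups are separate for Mcl1 to Bcl2, at 1.15 to 1.24 and 1.30 to 1.47, and overlap in the other panels.

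The proteins that the members oppose were compared as a list of 13 genes of BAX, BAK and BH3-only proteins, of which 12 were tested. None was called (0 of 12), 4 had a positive and 8 a negative log2 fold change, and the median was −0.17, or −0.28 in the 5-library fit, again with 0 called. Bak1, a pore-forming effector, had 2.88 ± 0.364 normalized counts in isotype and 2.14 ± 0.291 in DTA-1 (SD, n = 3 each). All its DTA-1 libraries were below the isotype libraries, as in 6.04% of all genes. Its log2 fold change was −0.42 (adjusted p from edgeR 0.771). Bmf, a BH3-only gene with under 1 normalized count in each group's mean, had a log2 fold change of −0.41 (SE 0.63). Bad, whose protein binds BCL-2 and BCL-XL, had 41.7 ± 2.10 and 35.5 ± 8.12. Bnip3, a mitochondrial BH3-like gene known for its response to low oxygen, had 166 ± 3.65 and 195 ± 22.7, with all DTA-1 libraries above the isotype libraries, as in 5.29% of all genes, and a log2 fold change of 0.23 (adjusted p from edgeR 0.632).

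Bax, named here after its values were seen, is the effector with the most counts and had 397 ± 25.2 and 343 ± 40.5 normalized counts. Its log2 fold change was −0.21 (SE 0.09), with an edgeR adjusted p of 0.657, and −0.31 in the 5-library fit (adjusted p from edgeR 0.0555). Bcl2 and Bax thus had log2 fold changes of the same sign and like size in both fits. Bcl2l11, which encodes BIM, the main BH3-only opponent of BCL-2 and MCL-1 in lymphocytes, had 5.98 ± 0.970 and 5.23 ± 2.20 and is also named after its values were seen.

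Downstream of the mitochondrion, all 11 genes of the apoptosome and caspase list were tested and 0 were called, with a median log2 fold change of 0.04, or 0.11 with 0 called in the 5-library fit. For Casp9, the caspase of the apoptosome, Xiap, a caspase inhibitor, and Cycs, which encodes cytochrome c, the log2 fold changes were −0.20, −0.13 and 0.12, and their groups overlapped. Of 6 relatives of the family, 3 were tested, and none was called (0 of 3). Bcl2l13 was the most abundant of them, with 63.4 ± 3.03 and 69.0 ± 5.39 normalized counts, and Bcl2l10 had 0 counts in all 6 libraries, which allows up to 3 counts in each.

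Other genes that NF-κB is known to induce were compared as a list of 9, named the NF-κB survival targets. The list holds feedback inhibitors of NF-κB such as Nfkbia beside survival genes. Its difference from Bcl2l1 and the Bcl2a1 copies was not tested. All 9 were tested and had a positive log2 fold change, with a median of 0.46, and 0 were called. At an unadjusted p under 0.05 and 1.5-fold edgeR and DESeq2's Wald test each gave 3 of 9, against 2.35% and 2.3% of all genes, and DESeq2 called 0 of 9 at the adjusted p. Nfkbia, an inhibitor of NF-κB, Gadd45b, a stress gene, and Birc3, which encodes cIAP2, had log2 fold changes of 0.88, 0.72 and 0.71, and Tnfaip3, which encodes A20, had 0.51. Of these only Gadd45b had all DTA-1 libraries above all isotype libraries, as in 5.29% of all genes. It had 5.18 ± 0.646 normalized counts in isotype and 8.52 ± 0.420 in DTA-1 (SD, n = 3 each). In the 5-library fit, 4 of the 9 were called (Birc3, Traf1, Tnfaip3 and Nfkbia), all higher, against 0.583% of all genes called higher. In that fit 0 of 7 members were called, against 0.744% of all genes in either direction. Some of the 9 targets were known from earlier results of these libraries, so the count of 4 is not independent evidence of its direction. With any other library left out in place of DTA-1 replicate 1, 0 of the 9 were called.

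**Figure D5:**
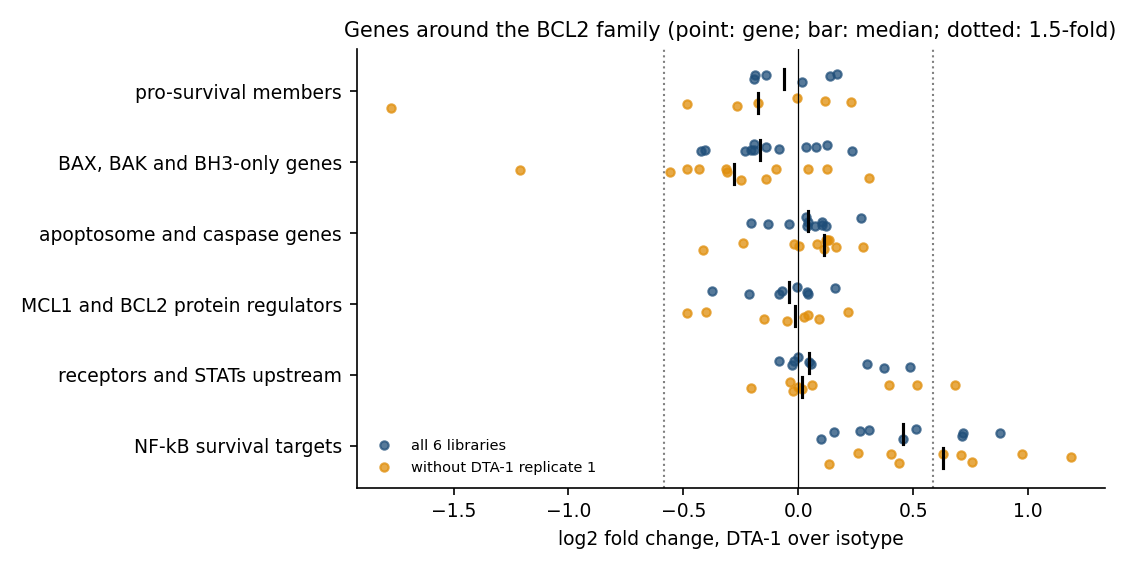
Log2 fold change of single genes (points) and the median (bar) of each list, DTA-1 over isotype (horizontal axis), for all 6 libraries (blue) and for 5, without DTA-1 replicate 1 (orange). The medians of the members lie at −0.06 and −0.17 and those of the NF-κB survival targets at 0.46 and 0.63, and the leftmost point is Bcl2a1a, which rests on few counts.

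Among 8 genes for regulators of the MCL-1 and BCL-2 proteins, 0 were called and the median log2 fold change was −0.04. Pim2, a survival kinase that cytokines induce through STAT5, had 46.7 ± 3.05 normalized counts in isotype and 36.0 ± 4.70 in DTA-1 (SD, n = 3 each). Every DTA-1 library of Pim2 was below every isotype library, as in 6.04% of all genes. Its log2 fold change was −0.37 (adjusted p from edgeR 0.627), and −0.49 in the 5-library fit (adjusted p from edgeR 0.0481, and 0.0481 to 0.999 across alternatives), short of 1.5-fold. The related kinase gene Pim1 had a log2 fold change of −0.22. For Usp9x, whose product removes ubiquitin from MCL-1, and Tpt1, whose product binds MCL-1, the values were 0.16 and −0.08.

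Upstream, 9 genes for receptors and STATs were tested and 0 were called. The receptor chains of IL-2 had positive values, with log2 fold changes of 0.49 for Il2rg, 0.37 for Il2rb and 0.30 for Il2ra, and the groups overlapped for Il2rg. For Il2rb and Il2ra each DTA-1 library was above each isotype library, as in 5.29% of all genes, with the nearest pairs at 428 against 424 and 2243 against 2240.2 normalized counts. Il2rg was called in the 5-library fit (log2 fold change 0.68, adjusted p from edgeR 0.000115, and 0.000115 to 0.999 across alternatives). Il1rl1, the IL-33 receptor gene, had −0.09. Tnfrsf18, which encodes GITR itself, had 717 ± 45.1 normalized counts in isotype and 708 ± 49.4 in DTA-1, and is named here after its values were seen, as are Stat5a and Stat5b, at 0.05 and 0.06 on the log2 scale.

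As a description of the pattern of each member, the genes with at least 10 normalized counts were ranked by the SD of their log2 ratio to it over the 6 libraries. Among 8722 genes, Gps2, Ermard and Rundc1 were most like Bcl2, with SDs of 0.0237 to 0.0304 beside a median of 0.193 over all genes compared. Ei24, Stxbp2 and Alad were most like Bcl2l1 (0.0203 to 0.0278, median 0.154), and Hnrnph3 and Tecpr1 were among those most like Mcl1 (0.0177 and 0.0215, median 0.143). For the summed Bcl2a1 copies they were Gm10177, Pou2f1 and Surf6 (0.0303 to 0.0650, median 0.235). Their highest value was in DTA-1 replicate 2, which follows from choosing them by likeness to a sum that is highest there.

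The promoters of the members were searched from 250 bases before to 50 bases after the start, in the RefSeq sequences for GRCm38.p6, where the 7 genes had 9 promoters. A motif of NF-κB (GGGA and TTCC with any 2 bases between), its stricter form with C and T as those bases, which the first includes, and the STAT motif TTCNNNGAA were searched on both strands. No member promoter held any of them (0 of 9), and they were found in 1.47%, 0.155% and 8.3% of 32851 promoters. This says only that these letters are not in these windows.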

How the data were processed

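RNA-seq was done on 3 isotype and 3 DTA-1 libraries. The values that the authors deposited are expected counts, not normalized. The submitters' processing notes name bcl2fastq 2.17.1.14, STAR 2.5.3a, Partek and mm10. The annotation, strand setting and handling of reads that match several genes are not given in the sources used here, and they decide how reads are divided among the Bcl2a1 copies. Of the values 79.7% were whole within 1e-06. The start of 48283 of 49721 shared symbols was that of GENCODE mouse release 21, and the end was 1 base past it in 47717 of them, so 1 was taken off each printed end. No value column was left out.

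Expected counts were rounded and fitted in R 4.3.3 with edgeR 4.0.16 (filterByExpr, TMM, robust quasi-likelihood F test). Normalized counts are CPM scaled by TMM. An SE was taken as the absolute log2 fold change over the root of F, and 95% intervals from it. limma 3.58.1 and DESeq2 1.42.0 were alternatives, with total counts, DESeq2 size factors, other filters, the replicate number as a block and each library left out. On simulated data for this comparison (14146 genes), 165 of 200 genes changed 2-fold were recovered, with 14 other calls. Every simulated gene had the same dispersion, 0.0256, and no simulated library stood apart as DTA-1 replicate 1 did. The recovery therefore does not give the power in the real libraries, nor that at 1.5-fold. Plots used Python 3.11.15, numpy 2.4.6, matplotlib 3.10.9 and pandas 2.3.3.

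The members and the gene lists were chosen with earlier results of these data known. Named genes are the members, up to 4 tested genes of each list with the largest absolute log2 fold change, and the 3 genes most alike each member, with others marked where named. Some genes that this rule names are not reported here. Same-numbered libraries were not treated as pairs, since their deviations from the group means had correlations of −0.007 to 0.015 across genes. Protein sequences were not used here.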

Additional observations from a re-analysis of the deposited data

How the results depend on the processing

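No member that could be tested was called under any alternative run (0 in each). These included DESeq2's Wald test, limma-trend and each library left out. They also included an unadjusted p under 0.05 together with 1.5-fold, and an adjusted p under 0.05 with no fold-change limit. Without the 1.5-fold limit, Bcl2 had an unadjusted edgeR p of 0.0475. Of 97 alternative log2 fold changes of the 6 members tested and the Bcl2a1 sum, 91 kept their direction, 6 had the other direction and 0 passed both thresholds. With the other direction were Mcl1 with total counts (−0.021), without the library labelled DTA-1 replicate 1 (−0.0058) and without isotype replicate 1 (−0.029), Bcl2l2 without DTA-1 replicate 3 (0.13), Bcl2a1b without DTA-1 replicate 2 (−0.10) and the Bcl2a1 sum without DTA-1 replicate 2 (−0.0011). The cause was not tested. Over the left-out libraries the log2 fold change ran from −0.27 to −0.12 for Bcl2, −0.17 to −0.11 for Bcl2l1, −0.029 to 0.052 for Mcl1, −0.49 to 0.13 for Bcl2l2, −0.10 to 0.36 for Bcl2a1b, 0.03 to 0.24 for Bcl2a1d and −0.0011 to 0.24 for the Bcl2a1 sum. Bcl2a1a, where tested, was at −2.33 with no filter and −3.45 to −1.77 with a DTA-1 library left out, the fewest counts of any member. The NF-κB survival targets called were 0 to 4 over the left-out libraries, with 4 without the library labelled DTA-1 replicate 1, and 3 at the unadjusted p. The difference in the log2 ratio of Bcl2l1 to Bcl2 ran from −0.023 to 0.13, with −0.023 without isotype replicate 3, that of Mcl1 to Bcl2 from 0.17 to 0.26 and that of the Bcl2a1 copies to Bcl2 from 0.12 to 0.45. With the replicate number as a block these differences were unchanged by construction (0.05, 0.21 and 0.33), with smallest possible exact p of 0.25, the log2 fold change was −0.19 for Bcl2 and 0.14 for the Bcl2a1 sum, and 0 members were called. Across all genes the block called 1 gene against 0 without it, and DESeq2's Wald test called 20. Low counts limited Bcl2l2 and Bcl2a1a, and shared sequence the single Bcl2a1 copies.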
